A study of Mus musculus with 6 samples.

Results

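The Hedgehog pathway genes described here are 9 genes measured in mesenchymal stem cells of mouse bone marrow (mBMSCs), and are compared between cells with RIOK3 knocked down and control cells. They were chosen by symbol (Gli1, Gli2, Gli3, Ptch1, Smo, Hhip, Sufu, Gas1 and Boc), and all 9 were among the 22030 genes of the count table. Messenger RNA was sequenced in 6 libraries, 3 of RIOK3 knockdown cells (titled siRIOK3) and 3 of control cells (titled siNC, with a WT genotype label). The series text speaks of stable lentiviral knockdown lines and once of a knockout, whereas the sample titles use si, so the labels disagree on what was delivered to the cells. The labels give no medium, passage, harvest day or source animal, and they do not say whether replicates were grown apart. The p-values below then cover only the spread between these libraries, which may be technical.

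Hedgehog ligands act on cells by binding PTCH1, a membrane protein that otherwise holds the transducer SMO inactive. Released SMO acts at the primary cilium, where it relieves SUFU's hold on the GLI transcription factors, which then switch on genes that include Gli1, Ptch1 and Hhip. In stromal progenitors of the skeleton the pathway is known for its part in the commitment of cells to bone and cartilage.

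In RIOK3 knockdown cells Smo, Sufu, Gli2 and the co-receptor genes Gas1 and Boc were higher than in control cells, by 1.58 to 2.33 fold, and Ptch1 and Hhip were lower, by 2.03 and 1.97 fold. Gli3 did not pass the test, and Gli1 had at most 6 counts in any library. The 5 that rose have transcripts rich in guanine and cytosine (GC), and fold changes tracked GC content across the whole table. With each library's GC trend removed, Ptch1 was still lower, Hhip was called in the opposite direction, and the 5 genes that had risen no longer passed.

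Ptch1 and Hhip are GLI-induced genes and were the members that fell, and Smo was the most abundant member, so the 250 bases before their annotated starts are shown. The sequences are those of RefSeq for GRCm38.p6, an earlier build than the GRCm39 named by the submitters, and were matched by symbol for 7 of the 9 members. Gli1 and Boc had no entry. The Ptch1 window is chr13:63565736-63565985 on the minus strand, the Hhip window is chr8:80058009-80058258 on the minus strand, and the Smo window is chr6:29735247-29735496 on the plus strand. All read 5′ to 3′, and capitals mark GC boxes (GGGCGG) and the cAMP response element (TGACGTCA) on either strand.
Ptch1: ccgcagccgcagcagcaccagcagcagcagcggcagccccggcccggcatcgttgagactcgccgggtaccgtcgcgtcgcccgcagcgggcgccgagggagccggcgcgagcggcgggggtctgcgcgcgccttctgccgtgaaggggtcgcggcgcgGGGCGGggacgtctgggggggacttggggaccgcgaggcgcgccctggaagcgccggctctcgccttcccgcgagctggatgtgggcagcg
Hhip: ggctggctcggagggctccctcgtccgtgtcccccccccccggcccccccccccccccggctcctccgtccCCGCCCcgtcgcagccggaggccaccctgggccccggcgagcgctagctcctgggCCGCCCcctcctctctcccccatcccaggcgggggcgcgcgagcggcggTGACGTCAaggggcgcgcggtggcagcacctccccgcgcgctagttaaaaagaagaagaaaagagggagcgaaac
Smo: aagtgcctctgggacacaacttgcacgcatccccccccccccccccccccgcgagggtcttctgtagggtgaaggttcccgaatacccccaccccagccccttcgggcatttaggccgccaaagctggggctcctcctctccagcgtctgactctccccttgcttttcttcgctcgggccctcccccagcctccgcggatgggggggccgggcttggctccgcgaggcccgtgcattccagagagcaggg
The GLI consensus GACCACCCA was in none of the 7 members' windows on either strand, and in 0.225% of the 32851 windows of all genes. That says only that these letters are not in these 250 bases. A GC box was in the windows of Ptch1 (1 match), Hhip (2 matches), Gli2, Gli3, Sufu and Gas1 but not of Smo, and in 32.7% of all windows. The response element was in the Hhip window, where it overlapped no GC box, and in 1.55% of all windows. GC made up 78.4% of the Ptch1 window, 76.0% of the Hhip window and 68.4% of the Smo window.

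Knockdown libraries held 28327612 to 30517261 counts and control libraries 31089006 to 32569544. Riok3 itself averaged 33.6 ± 3.12 CPM (a gene's share of a library's counts, scaled by TMM) in knockdown cells and 157 ± 31.1 CPM in control cells (SD, n = 3 each), a log2 fold change of −2.23 (SE 0.178, Benjamini-Hochberg adjusted p = 0.000127 in edgeR's quasi-likelihood test). Control replicate 2 stood apart, with Spearman correlations of log2 CPM across genes of 0.963 and 0.968 with the other control libraries, which correlated at 0.996. Of 13067 genes tested, 6266 changed at an adjusted p under 0.05, 2758 of them higher and 3508 lower in knockdown cells (3771 and 2938 when scaled by upper quartiles, 4280 and 2814 by library totals). Over all of them the log2 fold change had a median of 0.01 under TMM, 0.21 with upper quartiles and 0.26 with totals, so the other scalings shift every gene up by about that much. Across 13043 genes, which are not independent replicates, log2 fold changes and transcript GC content had a Spearman correlation of 0.70. Of 17 mesenchymal markers 16 were tested, 6 called higher and 7 lower, where 21.1% of all tested genes were higher and 26.8% lower. With each library's GC trend removed, 5 were called higher and 4 lower, where 16.3% and 15.2% of all tested genes were. Their summed levels were 2446 to 2713 CPM in knockdown and 3112 to 4187 CPM in control libraries, most of it Vim. Vim averaged 1528 CPM in knockdown cells and 2485 CPM in control cells, and Col1a2 398 and 172 CPM. Lepr had at most 13 counts and Thy1 at most 36 in any library. Of 13 haematopoietic markers 8 were in the table, with summed levels of 46.8 to 51.7 CPM in knockdown and 26.7 to 43.4 CPM in control libraries. Most of that sum was Cd68, and the pan-leukocyte gene Ptprc had at most 3 counts. Neither of the 2 tested haematopoietic markers was called, Cd68 at a log2 fold change of 0.45 and Cd14 at −0.69. With each library's GC trend removed, Cd14 was called lower, at −0.94 (edgeR adjusted p = 0.0377), and Cd68 was at 0.09 without passing. Summed chondrocyte markers (5 genes) had 15.8 to 18.0 CPM in knockdown and 21.8 to 30.5 CPM in control libraries. Acan and Sox9 among them were called lower, at log2 fold changes of −1.43 and −0.62. After a correction for GC content both were again called lower, at −1.84 and −0.51. Col2a1 was not tested and lay the other way, at 19, 13 and 9 counts in knockdown and 3, 3 and 8 in control libraries. Summed osteoblast markers (6 genes) had 29.3 to 31.9 CPM in knockdown and 22.1 to 31.0 CPM in control libraries, with Sp7 and Bglap at no more than 2 counts. Alpl was called higher at 1.31 and, after the correction, at 0.79, while Runx2 was at −0.02 without passing and was called lower after the correction, at −0.56. The adipocyte marker Fabp4 was called lower at −2.11 but not after the correction, at −0.25, and neither of 2 tested endothelial markers was called. The mesenchymal, chondrocyte, osteoblast and adipocyte genes named here were singled out after their values were seen. The part of all these markers in the results below was not tested. In bulk RNA, fewer cells of a type and less RNA per cell cannot be told apart.

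Of the 9 members, 8 passed the filter on low counts and were tested, the lowest count of any of these in any library being 46. Among the 8, 5 were called higher and 2 lower, where 48.0% of all tested genes were called, 21.1% higher and 26.8% lower. In 7 of the 8 the knockdown and control libraries did not overlap in CPM, as in 62.1% of all tested genes. The median log2 fold change of the 8 was 0.70, against 0.01 for all tested genes. With the GC trend of each library removed, 2 of the 8 were called, 1 higher and 1 lower, where 31.6% of all tested genes were called, 16.3% higher and 15.2% lower. The median of the 8 was then 0.29, against 0.03 for all tested genes. Without control replicate 2 and with no GC correction, all 8 were called, 5 higher and 3 lower. That fit called 9592 of 13398 tested genes, 4701 higher and 4891 lower.

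**Figure D1:**
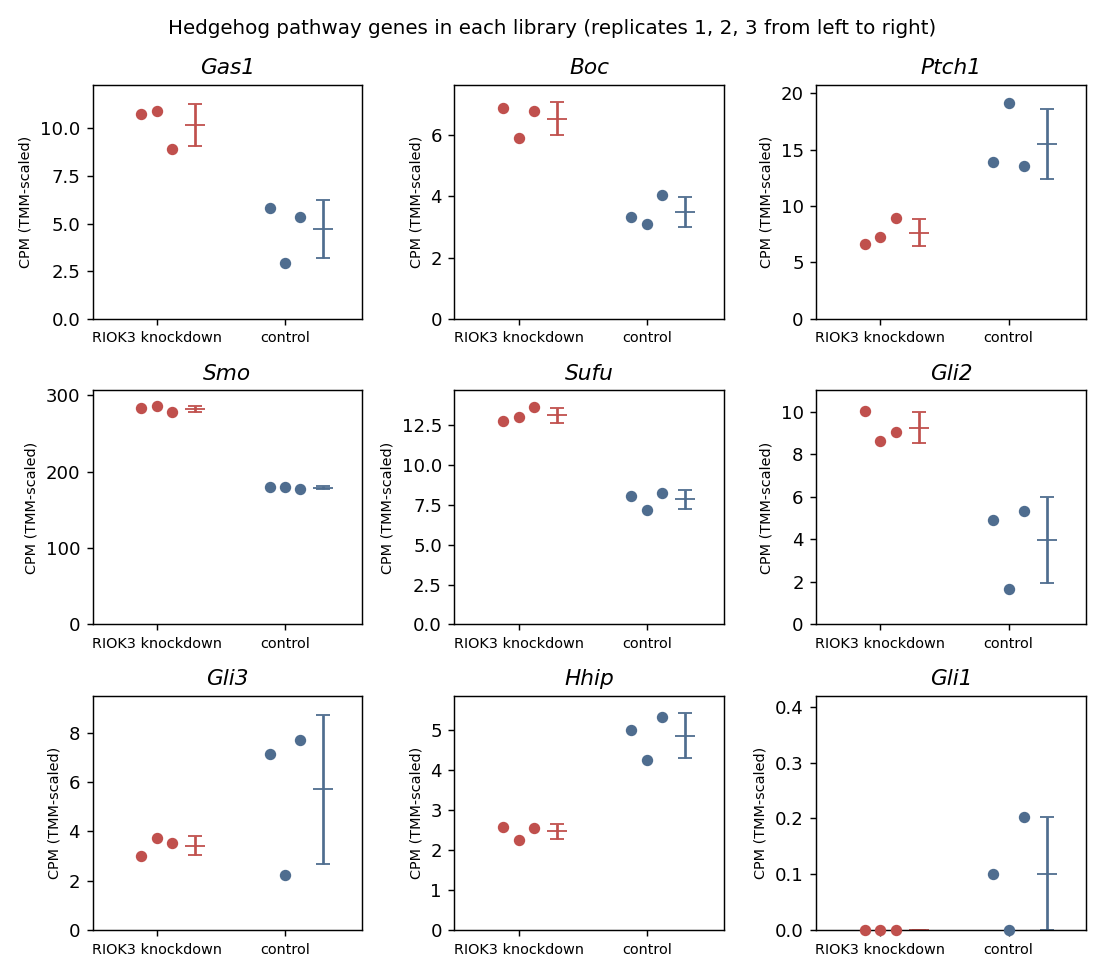
Level of each Hedgehog pathway gene in TMM-scaled CPM (vertical axis, from 0, scaled per gene) in the 3 RIOK3 knockdown libraries (red, left) and the 3 control libraries (blue, right). Points are libraries, and the bar beside them is the mean ± SD. The groups do not overlap for Gas1, Boc, Ptch1, Smo, Sufu, Gli2 and Hhip, and control replicate 2, the middle blue point, is the lowest library for Gli3.

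Per transcript length the members differed widely in level. In FPKM (fragments per kilobase of gene, scaled to library size, the authors' values) knockdown cells had Smo at 53.6 ± 0.677, Gas1 at 3.66 ± 0.387, Sufu at 1.82 ± 0.0777, Boc at 1.57 ± 0.127 and Gli2 at 1.44 ± 0.106 (SD, n = 3). Ptch1 followed at 0.577 ± 0.0929 FPKM, Gli3 at 0.383 ± 0.0473 and Hhip at 0.290 ± 0.0173, and Gli1 was listed at 0 in each knockdown library. In that order only Boc and Gli2 overlapped as neighbours. In control cells the order was Smo at 28.1 ± 0.404 FPKM, Gas1 at 1.41 ± 0.475, Ptch1 at 0.963 ± 0.179, Sufu at 0.900 ± 0.0819 and Boc at 0.690 ± 0.115. Gli3 at 0.527 ± 0.286, Gli2 at 0.513 ± 0.265 and Hhip at 0.470 ± 0.0656 came next, with Gli1 listed at 0.02, 0 and 0.04. From Gas1 down to Hhip, each gene overlapped its neighbour in the control order. Ptch1 thus stood 3rd in control cells and 6th in knockdown cells, a description of levels with no test.

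Smo, the seven-pass membrane protein that transduces the signal (ENSMUSG00000001761.8, chromosome 6), had 283, 286 and 278 CPM in knockdown replicates 1, 2 and 3, against 180.1, 179.9 and 177 CPM in control replicates 1, 2 and 3. Every knockdown library lay above every control library, and the spread within each group was small. The means were 282 ± 4.12 CPM in knockdown and 179 ± 1.48 CPM in control cells (SD, n = 3 each), a log2 fold change of 0.66 (SE 0.107, edgeR quasi-likelihood test, adjusted p = 0.00237). The Smo transcript used has 57.8% GC, and with the GC trend removed its log2 fold change was 0.07 (edgeR adjusted p = 0.640). With GC content and length removed together it was −0.04.

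Ptch1, the ligand receptor and itself a GLI target (ENSMUSG00000021466.13, chromosome 13), had 6.65, 7.30 and 8.95 CPM in knockdown replicates 1, 2 and 3, against 13.9, 19.1 and 13.5 CPM in control replicates 1, 2 and 3. All knockdown libraries lay below all control libraries, among which replicate 2 was the highest. The means were 7.63 ± 1.19 CPM in knockdown and 15.5 ± 3.13 CPM in control cells (SD, n = 3 each), a log2 fold change of −1.02 (SE 0.196, edgeR adjusted p = 0.00502). The transcript used has 50.2% GC, close to the median of 50.4% over tested genes. Removing the GC trend left the log2 fold change of Ptch1 at −1.06 (edgeR adjusted p = 0.0130). With GC and length removed together it was −1.10 (edgeR adjusted p = 0.0470). Without control replicate 2 it was −0.85 (edgeR adjusted p = 2.15e-05), and −0.82 after the GC correction as well. Ptch1 was the only tested member that kept both its direction and its call under every GC correction that was run. With a GC content near the median, it was little moved by the main GC offset. The kept call therefore does not rank Ptch1 above the other members.

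Within a library, the Ptch1 count divided by the Smo count is free of library scaling. That ratio was 0.0235, 0.0255 and 0.0322 in knockdown replicates 1, 2 and 3, against 0.0772, 0.106 and 0.0763 in control replicates 1, 2 and 3. The groups did not overlap, and the pair was chosen after the values were seen, so no test is given. The ratio sets a transcript of 50.2% GC against one of 57.8%, and the part of that difference was not tested. The Sufu to Smo count ratio, of transcripts with 58.0% and 57.8% GC, was 0.0450, 0.0454 and 0.0491 in knockdown libraries. In control libraries it was 0.0447, 0.0400 and 0.0465, so the groups overlap. That pair too was chosen after the values were seen, and no test is given.

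Gas1 encodes a membrane-anchored co-receptor that helps ligand bind PTCH1 (ENSMUSG00000052957.9, chromosome 13). It had 10.7, 10.9 and 8.89 CPM in knockdown replicates 1, 2 and 3, against 5.81, 2.95 and 5.36 CPM in control replicates 1, 2 and 3. The groups did not overlap, and control replicate 2 was the lowest library. Its log2 fold change was 1.11 (SE 0.262, edgeR adjusted p = 0.0117), and 0.51 after the GC correction (edgeR adjusted p = 0.279). The Gas1 transcript used, of 1155 nt and 72.3% GC, lies at the sparse upper end of the GC range.

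Boc encodes a transmembrane co-receptor of the immunoglobulin superfamily (ENSMUSG00000022687.13, chromosome 16). It had 6.90, 5.92 and 6.79 CPM in knockdown replicates 1, 2 and 3, against 3.32, 3.09 and 4.04 CPM in control replicates 1, 2 and 3. The groups did not overlap, and the log2 fold change was 0.91 (SE 0.174, edgeR adjusted p = 0.00483). After the GC correction it was 0.42 (edgeR adjusted p = 0.0932), for a transcript of 55.9% GC. Cdon, the paralog of Boc with the same role, averaged 3.85 CPM in knockdown and 1.52 CPM in control cells. Its log2 fold change was 1.33 (edgeR adjusted p = 0.0133) without and 1.53 (edgeR adjusted p = 0.00880) with the GC correction, for a transcript of 48.7% GC. Cdon is not a member and was singled out after its values were seen.

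**Figure D2:**
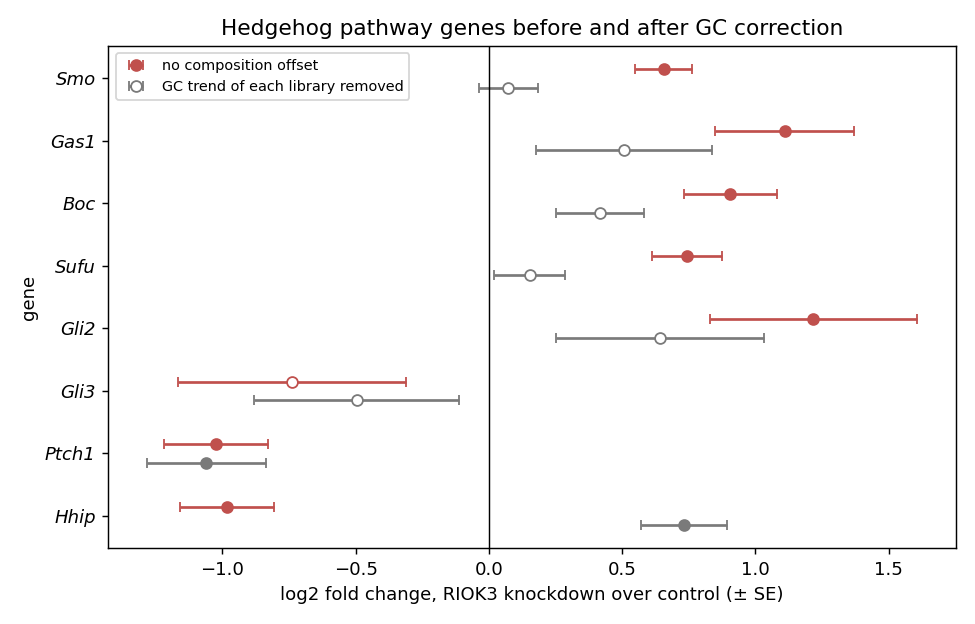
Log2 fold change of knockdown over control ± SE (horizontal axis) for the 8 tested Hedgehog pathway genes (vertical axis), in the edgeR fit without a composition offset (red) and with each library's GC trend removed (grey). Filled points have an adjusted p under 0.05. Ptch1 stays near −1 in both fits, Hhip moves to 0.73, and Smo moves to 0.07.

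Sufu, the cytosolic protein that restrains GLI factors (ENSMUSG00000025231.18, chromosome 19), had 12.7, 13.0 and 13.7 CPM in knockdown replicates 1, 2 and 3, against 8.06, 7.19 and 8.25 CPM in control replicates 1, 2 and 3. No library of a group reached the range of the other. The log2 fold change was 0.74 (SE 0.131, edgeR adjusted p = 0.00336), and 0.15 after the GC correction (edgeR adjusted p = 0.414), for a transcript of 58.0% GC.

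Gli2, in vertebrates the main activator among the GLI factors (ENSMUSG00000048402.15, chromosome 1), had 10.1, 8.62 and 9.08 CPM in knockdown replicates 1, 2 and 3. Control replicates 1, 2 and 3 had 4.93, 1.65 and 5.32 CPM, so the groups did not overlap and control replicate 2 was far below the others. The log2 fold change was 1.22 (SE 0.388, edgeR adjusted p = 0.0364), and 0.85 without control replicate 2 (edgeR adjusted p = 3.74e-05). The call was lost without control replicate 1 (adjusted p = 0.0540 in edgeR) and without any single knockdown library (adjusted p = 0.0784 to 0.101 in edgeR). Removing the GC trend gave 0.64 (edgeR adjusted p = 0.250), for a transcript of 57.5% GC.

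Gli3, which in the absence of ligand is processed into the pathway's main repressor (ENSMUSG00000021318.16, chromosome 13), had 2.98, 3.73 and 3.54 CPM in knockdown replicates 1, 2 and 3. Control replicates 1, 2 and 3 had 7.15, 2.23 and 7.71 CPM, so control replicate 2 lay below every knockdown library and the other control libraries above them. The log2 fold change of −0.74 (SE 0.428) did not pass (edgeR adjusted p = 0.193). Without control replicate 2 it was −1.12 and passed (edgeR adjusted p = 8.21e-06), and it was −0.84 after the GC correction (edgeR adjusted p = 0.000133). With all libraries and the GC trend removed it was −0.50 (edgeR adjusted p = 0.361), for a transcript of 48.4% GC. The mean GC content of the 3 coding transcripts of Gli3 was 55.4%. With the trend on such means removed, a setting chosen after seeing the data, the log2 fold change of Gli3 was −1.17 (edgeR adjusted p = 0.0789).

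Control replicate 2 was thus low in both Gli2 and Gli3, while the ratio of their counts within a library varied little among control libraries. Gli2 counts divided by Gli3 counts gave 3.38, 2.31 and 2.56 in knockdown replicates 1, 2 and 3, against 0.690, 0.742 and 0.690 in control replicates 1, 2 and 3. The groups did not overlap, and the pair was chosen after the values were seen, so no test is given. The ratio sets a transcript of 57.5% GC against one of 48.4%, and the part of that difference was not tested. Averaged over coding transcripts, the GC contents of Gli2 and Gli3 were closer, at 58.5% and 55.4%.

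Gli1, both a GLI factor and the usual readout of pathway activity (ENSMUSG00000025407.8, chromosome 10), had 0 counts in each knockdown library, against 3, 0 and 6 counts in control replicates 1, 2 and 3. The groups shared the value 0, and the gene did not pass the filter. A count of 0 over the 3 knockdown libraries together allows a level of up to 0.0311 CPM, and the 9 control counts amount to 0.103 CPM, limits that cover counting error only. Without a filter Gli1 was not called (edgeR adjusted p = 0.0924).

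Hhip, a membrane-anchored decoy that binds Hedgehog ligands and is itself a GLI target (ENSMUSG00000064325.5, chromosome 8), had 2.58, 2.25 and 2.54 CPM in knockdown replicates 1, 2 and 3, against 5.002, 4.24 and 5.32 CPM in control replicates 1, 2 and 3. All knockdown libraries lay below all control libraries. The log2 fold change was −0.98 (SE 0.176, edgeR adjusted p = 0.00365). The Hhip transcript used, of 9074 nt, has the lowest GC content of the tested members, 41.2%. With the GC trend removed its log2 fold change was 0.73, called higher (edgeR adjusted p = 0.0148), and it was positive in each of the other GC corrections run, without passing when the replicate number was added (edgeR adjusted p = 0.0510). The direction of Hhip therefore depended on the GC correction, and the effects of GC slope and group cannot be told apart, since the 2 coincide in these libraries.

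**Figure D3:**
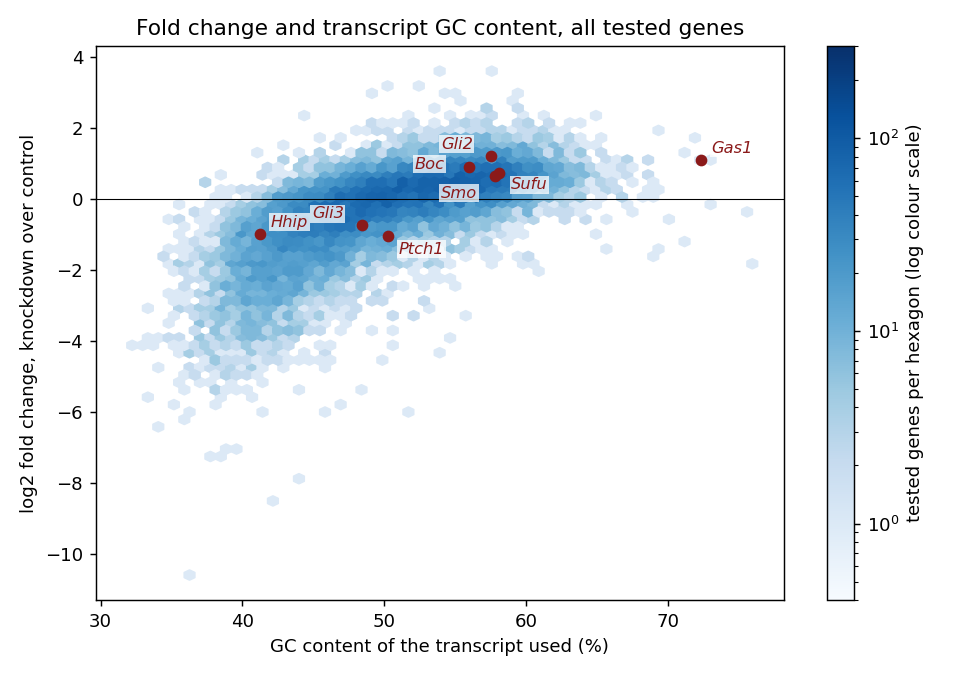
Log2 fold change of knockdown over control (vertical axis) against the GC content of the transcript used (horizontal axis, percent) for 13043 tested genes, as hexagons coloured on a log scale by the number of genes, with the 8 tested Hedgehog pathway genes as red points. Hhip, at 41.2% GC, sits among genes that mostly fell, Smo, Sufu, Gli2 and Boc sit among genes that mostly rose, and Ptch1 lies below most genes of its GC content.

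Each library's slope of log2 CPM on transcript GC content, after each gene was centred on its mean over the 6 libraries, was 0.662, 0.657 and 0.564 per 10 points of GC in knockdown replicates 1, 2 and 3, against −0.794, −0.450 and −0.640 in control replicates 1, 2 and 3. The groups did not overlap. The centring makes the 6 slopes cancel on average, so they are relative to one another. In the transcripts used, the 5 members that rose have 55.9 to 72.3% GC, above the median of 50.4% over tested genes. Ptch1, Gli3 and Hhip have 50.2%, 48.4% and 41.2%, though the mean over the coding transcripts of Gli3 is 55.4%. The part of the GC trend in the members' differences was not tested beyond the offsets.

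Profiles over the 6 libraries most like each member's were found by the distance between log2 CPM values centred on each gene's mean, a description only. Smo was nearest to Tead2 (distance 0.0631) and Mlec (0.0806), and Sufu to Rnf10 (0.0705) and Tdp1 (0.0719). Boc was nearest to Angpt4 (0.137) and Crocc (0.152), Gas1 to Cyb561d1 (0.134) and Tnk2 (0.140), and Gli2 to Tacc1 (0.185) and Tnrc18 (0.188). Ptch1 was nearest to Cab39l (0.151) and Frrs1 (0.182), Hhip to Lrpprc (0.129) and Prss23 (0.145), and Gli3 to Ice1 (0.235) and Ncoa4 (0.259). No member had another member among its nearest 2 genes. Members are few among the tested genes, so that says little about whether members varied together.

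The rest of the pathway was described from 4 lists of 58 further genes, of which 53 were in the table and 42 were tested. Of the 42, 20 were called higher and 6 lower, with a median log2 fold change of 0.52. After the GC correction 8 were called higher and 6 lower, with a median of 0.30. Read against the shares of all tested genes given above, this is more rises than the background without the correction and close to it with the correction, and no test of the list was made.

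Of the ligand genes, Ihh had at most 3 counts and Dhh at most 1 count in any library, and no gene analysed here had the symbol Shh. Disp1, which releases lipid-modified ligand from producing cells, averaged 15.5 CPM in knockdown and 10.95 CPM in control cells and was called higher (log2 fold change 0.50, edgeR adjusted p = 0.0251), and was at 0.02 after the GC correction. Hhat, the acyltransferase of the ligands, had a log2 fold change of 0.33 and did not pass (edgeR adjusted p = 0.408).

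Among 12 tested reception genes other than members, 6 were called higher and 1 lower, where 21.1% of all tested genes were higher and 26.8% lower. After the GC correction 3 were called higher and 1 lower, where 16.3% and 15.2% of all tested genes were. Evc2, part of the complex that relays SMO activity at the base of the cilium, averaged 293 CPM in knockdown and 143 CPM in control cells (log2 fold change 1.03, edgeR adjusted p = 0.000947), and still passed with the GC trend removed, at 0.49 (edgeR adjusted p = 0.0292). Efcab7, which tethers that complex, averaged 0.945 CPM in knockdown and 5.64 CPM in control cells (−2.58, edgeR adjusted p = 0.000304) and was at −0.77 after the correction (edgeR adjusted p = 0.0229). Grk2, a kinase that acts on SMO, was called higher at 0.81 (edgeR adjusted p = 0.00140), and was at 0.23 without passing after the correction.

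Among 19 genes of GLI processing, 8 were called higher and 2 lower, with a median log2 fold change of 0.22, where 21.1% of all tested genes were higher and 26.8% lower. After the GC correction 4 were called higher and 4 lower, where 16.3% and 15.2% of all tested genes were. Those lower were then Cul3, Gpr161, Csnk1a1 and Csnk1e, and those higher were Btrc, Prkaca, Prkar1a and Gsk3b. Of these, all but Cul3, Btrc and Prkaca were named after their values were seen. Cul3 and Spop, the scaffold and the adaptor of a ubiquitin ligase that degrades GLI proteins, were the 2 that fell without the correction. Cul3 averaged 27.6 CPM in knockdown and 236 CPM in control cells (log2 fold change −3.10, edgeR adjusted p = 3.31e-05), and was at −0.73 after the GC correction (edgeR adjusted p = 0.00322). Spop was at −1.06 (edgeR adjusted p = 0.00186), and at −0.65 without passing after the correction. Btrc, the adaptor of another ligase that starts GLI processing, averaged 27.0 CPM in knockdown and 14.0 CPM in control cells (0.95, edgeR adjusted p = 0.00109) and was at 0.73 after the correction (edgeR adjusted p = 0.00614). Prkaca, a catalytic subunit of protein kinase A, which phosphorylates GLI factors for processing, was called higher at 1.19 (edgeR adjusted p = 0.00209) and at 0.77 after the correction (edgeR adjusted p = 0.0192). Prkar1a was also called higher, at 0.54 (edgeR adjusted p = 0.00650) and at 1.20 after the correction (edgeR adjusted p = 0.00178). Gsk3b was at −0.18 without passing and at 0.56 after the correction (edgeR adjusted p = 0.0193).

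**Figure D4:**
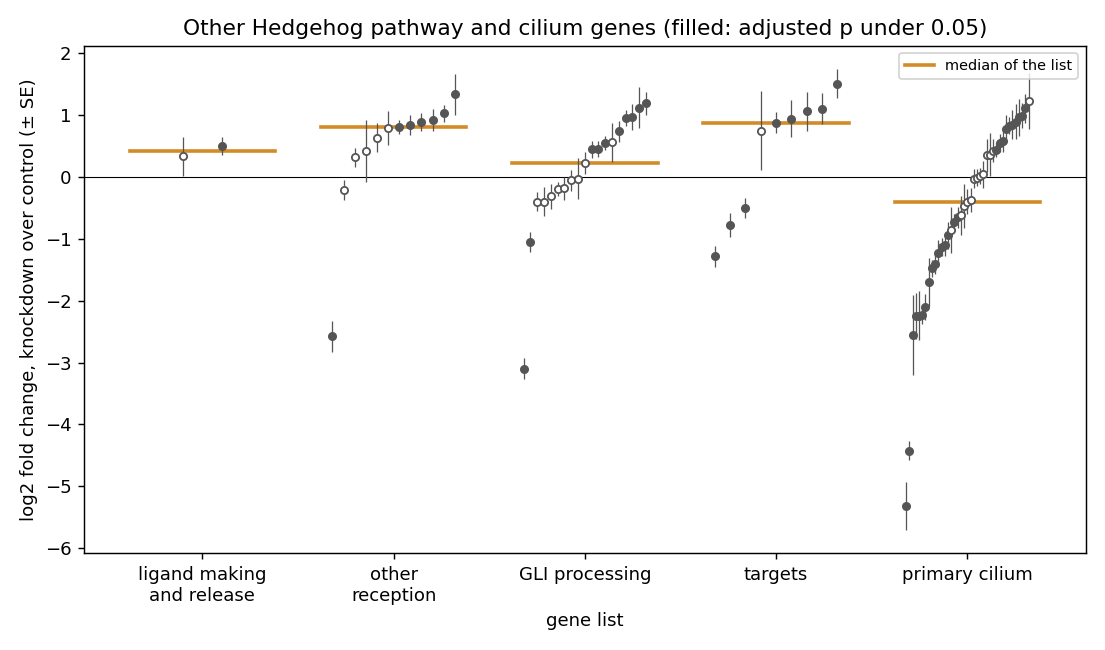
Log2 fold change of knockdown over control ± SE (vertical axis) of the tested genes in 4 lists of other Hedgehog pathway genes and in a list of primary cilium genes (horizontal axis), ordered by value within each list. Filled points have an adjusted p under 0.05 and the orange line is the median of the list, which is 0.80 for other reception genes, 0.22 for GLI processing, 0.88 for targets and −0.40 for cilium genes.

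Of 9 tested genes that GLI factors are known to induce in some tissue, 5 were called higher and 3 lower, with a median of 0.88, where 21.1% of all tested genes were higher and 26.8% lower. Once the GC trend was removed, 1 was higher and 1 lower, near the 16.3% and 15.2% of all tested genes. Ccnd1, the G1 cyclin D1, averaged 28.6 CPM in knockdown and 69.3 CPM in control cells (log2 fold change −1.28, edgeR adjusted p = 0.00107), and was at −1.37 after the GC correction (edgeR adjusted p = 0.000943). Osr2, a zinc finger factor of palate and joint development, averaged 3.12 CPM in knockdown and 1.09 CPM in control cells (1.51, edgeR adjusted p = 0.00194), and was at 1.10 after the correction (edgeR adjusted p = 0.0104). Snai1 and Foxc2, transcription factors of mesenchyme, were called higher at 0.88 and 1.11, and were at 0.23 and 0.38 without passing after the correction. Other pathways control these genes too.

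Of 39 genes of the primary cilium, where SMO acts, 10 were called higher and 16 lower, with a median log2 fold change of −0.40, where 21.1% of all tested genes were higher and 26.8% lower. The transport gene Ift74 averaged 8.17 CPM in knockdown and 175 CPM in control cells (−4.42, edgeR adjusted p = 1.86e-05), the centriolar gene Ofd1 18.5 and 87.4 CPM (−2.24, edgeR adjusted p = 3.98e-05), and the transition zone gene Cep290 0.977 and 39.0 CPM (−5.32, edgeR adjusted p = 9.35e-05). After the GC correction 7 cilium genes were called higher and 7 lower, near the 16.3% and 15.2% of all tested genes, with a median of −0.07. Ift74, Ofd1 and Cep290 still passed at −2.81, −1.20 and −2.96.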

How the data were processed

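Per the labels' protocols, each library was made from 2 μg of RNA with a strand-specific mRNA kit and read as 150-base pairs. The submitters' processing notes name HISAT2, MultiQC and the build GRCm39, without versions. How reads were assigned to genes, and whether strand was used, is not stated, so overlapping genes may share reads. The authors deposited raw counts per gene, used for all tests, and FPKM values, which scale counts by length and library total and are rounded. FPKM served for levels between genes and for alternatives.

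edgeR 4.0.16 (R 4.3.3) was used on the counts. The filterByExpr filter left 13067 genes with 99.95% of counts, which were scaled by TMM and compared with the robust quasi-likelihood test without covariates, two-sided. Benjamini-Hochberg adjustment covered all tested genes, and genes were called at an adjusted p under 0.05. Log2 fold changes are knockdown over control. The SE is the fold change divided by the square root of F. The biological coefficient of variation was 0.213.

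For the GC correction, log2 CPM (prior count 2) was first centred on each gene's mean over the libraries. Each library's loess trend (span 0.3, degree 1) of these centred values on transcript GC content then entered the fit as an offset. GC content came from GENCODE M21 on GRCm38, using for each gene the transcript with the longest coding part, then the longest, for 13043 genes (99.8%). Alternatives were other scalings and filters, DESeq2 1.42.0, limma 3.58.1 (voom, and FPKM with pseudocounts 1 and 0.1), a replicate block and each library left out. The scripts were tested on simulated counts with less spread between libraries than here and no GC trend between groups. That test therefore does not cover these 2 features of the data.

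The members and gene lists were chosen with earlier results of these data known. Besides all members, the genes named are Riok3, the ligands, the 4 genes of smallest p in each pathway list, 3 in the cilium list, defining cell markers and the 2 nearest profiles of each tested member, except where a gene is said to have been singled out afterwards. Some results that the rule would name are not reported here.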

Additional observations from a re-analysis of the deposited data

How the results depend on the processing

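Without a GC correction, the 5 rises and the falls of Ptch1 and Hhip kept their direction under every alternative run. Gas1, Boc, Smo and Sufu also kept their call in all of these. Smo turned to −0.037 with GC and length removed. Hhip turned to 0.73 with the GC offset, 0.92 with GC and length, 0.73 with GC and replicate block, 0.78 with GC and without control replicate 2, and 0.93 with the mean GC of coding transcripts, a setting chosen after seeing the data. The cause was not tested. These 5 settings called, in the same order, 2, 2, 1, 3 and 2 members, of which 1, 1, 0, 1 and 1 were higher and 1, 1, 1, 2 and 1 lower. Over all genes the GC offset called 4118 of 13043 (2130 higher, 1988 lower), and GC and length 5164 of 13043 (2810 higher, 2354 lower). GC with replicate block called 3101 of 13043 (1562 higher, 1539 lower), and the mean GC setting 4138 of 13043 (2175 higher, 1963 lower). The GC offset without control replicate 2 called 8229 of 13372 genes, 4500 higher and 3729 lower. Over its 20 alternatives Ptch1 ranged from −1.14 to −0.31 and lost its call only with unfiltered FPKM (adjusted p = 0.0538 in limma). The −0.31 is from that FPKM setting, where a pseudocount of 1 shrinks the fold change of a gene with a mean FPKM under 1. The next smallest change was −0.77, with library totals alone.

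With at least 5 CPM in 3 libraries, Hhip and Gli3 were not tested and 1 member was lower. With FPKM, 0 members were lower, since Ptch1, Hhip and Gli3 were under the FPKM filter or, unfiltered, did not pass, and filtered FPKM called 1976 genes lower (1974 with pseudocount 0.1). Voom with quality weights called 9475 genes (4672 higher) and Gli3 lower, at −1.11, and library totals alone 4280 higher. Leaving out 1 library gave 4340 to 9592 genes called, 1647 to 4701 higher and 2693 to 4891 lower, the highest of each without control replicate 2 and the lowest without knockdown replicate 2 (1653 higher without knockdown replicate 1), and 6 to 8 members called, 4 or 5 higher and 2 or 3 lower.

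Same-numbered libraries did not deviate together (correlations −0.08, 0.04 and 0.05), so numbers were not taken as pairs. The replicate block called 7 members and 5615 genes, and changed no member's call. With the GC offset it called 3101 genes (1562 higher, 1539 lower), and Hhip did not pass (adjusted p = 0.0510 in edgeR). Gli1 had 9 counts in all, and FPKM is rounded to 2 decimals, coarse for Hhip and Gli3.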
